A study of Mus musculus with 12 samples.

Results

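The J-domain proteins are the obligate partners of the Hsp70 chaperones, and the family described here comprises every gene that the array names Dnaja, Dnajb or Dnajc with a number, without Dnajc2, the gene of Zrf1, which the study itself depleted. The rule used the gene names alone and took no measured value. It found 62 of the 55681 non-control probes, for 42 of 36406 gene names. Of these 42 genes, 40 were measured well enough to be tested, among 22593 genes tested in all. The other 2, Dnajb7 and Dnajb8, are testis-expressed members: the Dnajb7 probe was above background on no array, and the Dnajb8 probe was above background on at most 2 of the 4 arrays of any group.

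A J domain binds Hsp70 and, through an invariant tripeptide of histidine, proline and aspartate, triggers the hydrolysis of ATP that locks Hsp70 onto its client. Class A members carry a glycine- and phenylalanine-rich linker and a zinc finger, class B members keep the linker without that finger, and class C members share only the J domain and place Hsp70 at a given site, such as the mitochondrial import motor, a clathrin coat, the spliceosome or the ribosome. In the lumen of the endoplasmic reticulum (ER), several members serve the Hsp70 known as BiP, and some of their genes are known targets of the unfolded protein response, while cytosolic members such as Dnajb1 are known targets of the heat shock response.

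Total RNA was measured on 12 one-colour arrays of mouse embryonic stem cells (ESCs), 4 for each group, grown with 15% serum and leukaemia inhibitory factor. Id1KO_Zrf1KD cells are labelled as a knockout of Id1, a helix-loop-helix inhibitor of basic helix-loop-helix transcription factors, and were also infected with a lentiviral pLKO vector that encodes short hairpins against Zrf1, with puromycin selection of stable cells. Id1KO cells are the same Id1 knockout line without the vector, and WT cells are wild-type ESCs. The labels call the 4 arrays of each group independent biological replicates, and none of them names separate lines or clones within a group. Id1KO cells with a control hairpin were not analysed here, so that infection, selection and depletion cannot be told apart in the knockdown comparison, and the Id1KO and WT groups differ as lines as well as in Id1. All 3 comparisons share samples: Id1KO serves in the knockdown comparison and in the knockout comparison.

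The targeted gene went with its label: the Dnajc2 probe was 4.47-fold lower in Id1KO_Zrf1KD than in Id1KO (log2 fold change -2.16 ± 0.073 SE, adjusted p = 9.7e-10). The Id1 probe did not show a loss in the cells labelled as its knockout: its levels were 1.33, 1.58, 0.86 and 1.13 in Id1KO, against 0.74, 0.64, 1.01 and 1.05 in WT (log2 fold change 0.37 ± 0.15 SE, adjusted p = 0.052), with overlapping values and all arrays above background. In Id1KO_Zrf1KD the Id1 levels were 0.62, 0.60, 0.92 and 0.57 (log2 fold change over Id1KO -0.55, adjusted p = 0.0077). No label says which part of Id1 was deleted, so whether this probe lies in it is unknown, and every direction given for Id1KO over WT below rests on the labels alone. All 10 ESC markers were above background on all 12 arrays. Their summed level, in multiples of each array's 75th percentile signal, was 942 to 961 in Id1KO_Zrf1KD, 1130 to 1260 in Id1KO and 1040 to 1190 in WT. The brightest, Dppa5a, weighs most in this sum, with mean log2 levels of 8.87, 9.53 and 9.03 in the same order. Taken singly, 5 of the 10 ESC markers rose in Id1KO_Zrf1KD over Id1KO, 3 fell and 2 did not pass. In Id1KO over WT, 4 rose, 4 fell and 2 did not pass. Their log2 fold changes there ran from -1.02 (Zfp42) and -1.01 (Nanog) to 0.78 (Tdgf1). Markers of other cell types moved with the knockdown. The 10 fibroblast markers summed to 95.2 to 105 in Id1KO_Zrf1KD, 27.2 to 32.1 in Id1KO and 28.7 to 30.9 in WT, with Lum above background on no Id1KO or WT array, and all 10 rose over Id1KO. The 10 endoderm markers summed to 321 to 334 in Id1KO_Zrf1KD, 108 to 113 in Id1KO and 191 to 203 in WT. Afp was above background on no Id1KO or WT array, and all 10 endoderm markers rose in Id1KO_Zrf1KD over Id1KO. Sparc weighs most in this sum, with mean log2 levels of 8.02, 6.48 and 7.42 in the same order. In Id1KO over WT, 4 of the 10 rose and 4 fell. The 75th percentile signal itself was 554 to 596 in Id1KO_Zrf1KD, 393 to 492 in Id1KO and 441 to 550 in WT. These values stand beside every knockdown result below, and their part in it was not tested. In these bulk samples fewer cells of a type and less RNA per cell cannot be told apart.

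Sequences show what unites the members and where they differ. The signature of the family is visible in the first codons of mouse Dnajb1, the classical heat-inducible Hsp40, from the RefSeq table of build GRCm38.p6 (chr8:83608332-83608451, plus strand), and in 1 of the array's own probes, a Dnajc10 probe that lies in the J domain of that ER disulfide reductase (chr2:80157697-80157756 in mm9, the build of the scanner files). Capitals mark the codons of histidine, proline and aspartate, which begin at codon 32 of Dnajb1.
Dnajb1: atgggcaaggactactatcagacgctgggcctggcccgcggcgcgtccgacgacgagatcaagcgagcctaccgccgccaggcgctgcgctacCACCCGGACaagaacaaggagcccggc
Dnajc10 probe: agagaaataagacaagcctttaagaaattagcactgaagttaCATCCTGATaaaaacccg

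Of the 42 members, 36 matched the RefSeq promoter table of build GRCm38.p6, which holds 250 bases before and 50 after each listed start; Dnajc5, Dnajc11, Dnajc12, Dnajc18, Dnajc22 and Dnajc30 did not. Elements of the ER stress and heat shock responses were looked for on both strands because the ER and cytosolic members are the groups described first below. The ER stress element, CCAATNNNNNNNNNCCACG, occurred in 0.119% of all 32851 windows and in 1 member, Dnajc3, where it begins 105 bases before the start. The related ER stress element II, ATTGGNCCACG, occurred in 0.0365% of windows and in 1 member, Dnajb11, 7 bases after the start. The unfolded protein response element, TGACGTGG, occurred in 0.676% of windows and in 1 member, Dnajc25, 49 bases before the start. A heat shock element of 3 units, GAANNTTCNNGAA, occurred in 0.603% of windows and in 1 member, Dnajb6, 46 bases before the first of its listed starts. Units of 2, which overlap the longer element, were more common: GAANNTTC lay in 7.86% of windows and in 4 of the 36 members (Dnaja1, Dnaja4, Dnajb6 and Dnajc27), and TTCNNGAA in 8.52% of windows and in 3 members (Dnajb4, Dnajb6 and Dnajc10). A gene can have several windows. Counted by gene, as the members are, the shares over 27025 genes were 0.137%, 0.0444%, 0.714%, 0.662%, 9.04% and 9.6%, in the order given. The 4 matched stretches follow on the plus strand, with the element in capitals, at chr14:118937812-118937931, chr16:22857843-22857872, chr4:59003093-59003192 and chr5:29735798-29735897 of GRCm38.p6. A match describes letters only and is not evidence that a factor binds.
Dnajc3: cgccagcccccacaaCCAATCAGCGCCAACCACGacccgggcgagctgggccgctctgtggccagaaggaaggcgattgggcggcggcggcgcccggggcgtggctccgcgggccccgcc
Dnajb11: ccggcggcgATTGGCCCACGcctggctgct
Dnajc25: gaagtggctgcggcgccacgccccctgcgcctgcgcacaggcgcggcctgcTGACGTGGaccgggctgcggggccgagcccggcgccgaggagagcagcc
Dnajb6: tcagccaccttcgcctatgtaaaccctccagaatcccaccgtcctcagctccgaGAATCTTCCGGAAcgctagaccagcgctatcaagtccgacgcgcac

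The first comparison, Id1KO_Zrf1KD over Id1KO, asks what goes with the depletion of Zrf1 in the knockout line. Most of the ER and cytosolic members were higher in the knockdown cells, by up to 1.88-fold, whereas some members of the mitochondrial, vesicle and RNA groups were lower. The falls of Dnajc19, Dnajc28, Dnajc5 and Dnajc27 depended on the probe, the scaling or the arrays used, as described below. Dnajc5 and Dnajc27 were the only vesicle members called lower. These compartment lists were chosen with earlier results of these data known. Levels are log2 of the processed signal over the array's 75th percentile, so that 0 is the level of that percentile, and are compared only within a probe. Of 40 members, 32 passed the test (80%, adjusted p under 0.05), against 72.1% of all genes tested, so the share that passed is near the background. The direction was 22 higher and 10 lower, where 32.3% of all genes were higher and 39.8% lower. The counts by compartment and class below stand beside the same shares. The median log2 fold change of the members was 0.18, that of all genes -0.09. The value for all genes depends on scaling, since it was 0.0072 with quantile normalization and 0.0025 in the authors' deposited log2 values. In 31 members the 4 against 4 values did not overlap, as in 67.1% of all genes. Changes were small: a fold of at least 2 was passed by 1 member upward and 4 downward, against 20.4% of all genes in either direction (7.17% higher and 13.2% lower), and the median absolute log2 fold change was 0.36 in the members and 0.50 in all genes. The 4 downward were Dnajc15, Dnajc22, Dnajc28 and Dnajc5. Of these, the Dnajc28 call did not hold and the probes of Dnajc5 disagreed, as described below. Every one of the 32 calls had the same sign within each of the 3 slides, all of which held arrays of every group. The calls came from these same arrays, so the agreement between slides is no separate test.

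**Figure D1:**
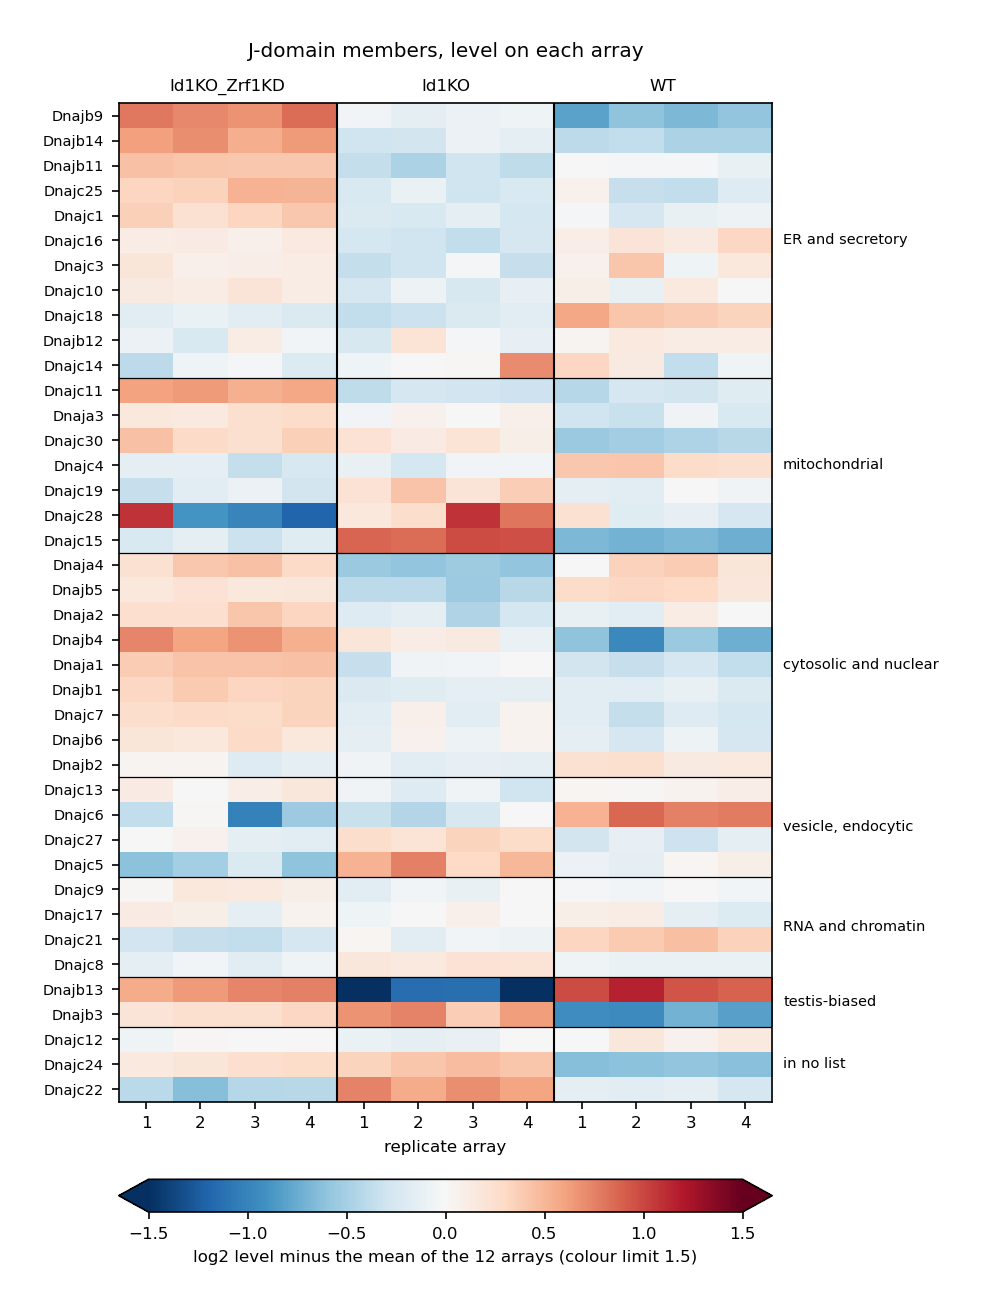
Level of the 40 tested members on each array, as the log2 level minus the member's mean over the 12 arrays, with columns for the 4 replicates of Id1KO_Zrf1KD, Id1KO and WT and rows ordered by compartment. The upper rows of the ER group are high in all 4 Id1KO_Zrf1KD arrays, Dnajc15 is high in Id1KO, and Dnajc28 shows 1 knockdown array apart from the other 3.

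Among the ER and secretory members, 8 of 11 rose in Id1KO_Zrf1KD over Id1KO and none fell, with a median log2 fold change of 0.41. Over all genes, 32.3% were higher and 39.8% lower. Dnajb9, a BiP partner in the ER lumen that serves the degradation of misfolded proteins, had levels of 1.64, 1.56, 1.52 and 1.68 in Id1KO_Zrf1KD and of 0.80, 0.70, 0.76 and 0.78 in Id1KO. The groups did not overlap, and Dnajb9 rose 1.79-fold (log2 fold change 0.84 ± 0.056 SE, adjusted p = 1.6e-07). Its second probe rose as well, by 1.07 ± 0.072 on the log2 scale. Dnajb11, a client-binding partner of BiP that can be secreted, had levels of 4.03, 4.0, 3.99 and 3.99 in Id1KO_Zrf1KD, against 3.23, 3.11, 3.29 and 3.21 in Id1KO. That is a 1.73-fold rise with no overlap (adjusted p = 4.7e-08). Dnajb14, which is anchored in the ER membrane with its J domain in the cytosol, had levels of 2.40, 2.48, 2.33 and 2.42 in Id1KO_Zrf1KD and of 1.48, 1.5, 1.69 and 1.65 in Id1KO, a 1.78-fold rise (adjusted p = 2.2e-07). Its close relative Dnajb12 had a log2 fold change of -0.01 ± 0.095 and did not pass (adjusted p = 0.91).

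The remaining ER members moved less. Dnajc3, the lumenal co-chaperone that also inhibits the kinase PERK and whose promoter holds the ER stress element printed above, had levels of 0.68, 0.57, 0.59 and 0.60 in Id1KO_Zrf1KD, against 0.14, 0.19, 0.46 and 0.15 in Id1KO. It rose 1.30-fold (adjusted p = 0.0061), and 1 Id1KO array stood closer to the knockdown arrays than the other 3 did. Dnajc25, whose promoter holds the unfolded protein response element, had levels of -1.17, -1.14, -0.96 and -0.98 in Id1KO_Zrf1KD and of -1.71, -1.59, -1.78 and -1.72 in Id1KO, a 1.55-fold rise (adjusted p = 1e-04). Dnajc1, a membrane protein that binds ribosomes, rose by 0.54 ± 0.059 on the log2 scale, and Dnajc16, an ER membrane member, by 0.41 ± 0.052. Dnajc10 rose by 0.31 ± 0.062, with levels of 3.45 to 3.53 in Id1KO_Zrf1KD and 3.09 to 3.26 in Id1KO. This rests on the brightest Dnajc10 probe: the J-domain probe printed above had a log2 fold change of -0.05 ± 0.11 (adjusted p = 0.68), and the mean of both probes did not pass (0.13, adjusted p = 0.14). Dnajc18 (0.11 ± 0.065, adjusted p = 0.16) and Dnajc14 (-0.33 ± 0.19, adjusted p = 0.13), both ER membrane proteins, did not pass. For Dnajc14, 1 Id1KO array was at -1.72 and the other 3 between -2.49 and -2.41, and after normexp background correction it was lower in Id1KO_Zrf1KD (log2 fold change -0.32, adjusted p = 0.034).

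The cytosolic and nuclear members that bind clients rose in 8 of 9 cases, and none fell, with a median log2 fold change of 0.53. This count, too, stands against 32.3% of genes higher and 39.8% lower. All 4 members of class A were among the members that rose, 3 of them in this group. Dnaja4, whose gene is known as sterol regulated, had levels of -0.33, -0.16, -0.12 and -0.28 in Id1KO_Zrf1KD and of -1.12, -1.15, -1.10 and -1.16 in Id1KO, a 1.88-fold rise with no overlap (log2 fold change 0.91 ± 0.080 SE, adjusted p = 1.5e-06). Dnajb1 had levels of 5.13, 5.21, 5.14 and 5.15 in Id1KO_Zrf1KD, against 4.60, 4.64, 4.69 and 4.67 in Id1KO, a 1.42-fold rise (adjusted p = 5.2e-07). Dnaja1, a general co-chaperone of Hsc70, had levels of 6.44, 6.49, 6.49 and 6.50 in Id1KO_Zrf1KD and of 5.71, 6.01, 6.02 and 6.07 in Id1KO. It rose 1.44-fold (adjusted p = 5.4e-05), although its dimmer second probe had a log2 fold change of -0.06 ± 0.088 and did not pass (adjusted p = 0.56). Dnajb5, an Hsp40 found with class II histone deacetylases, rose 1.52-fold, with levels of 1.61 to 1.67 in Id1KO_Zrf1KD against 0.91 to 1.07 in Id1KO. Dnaja2 rose by 0.57 ± 0.080 and Dnajb4 by 0.56 ± 0.095 on the log2 scale, and Dnajb4 by 0.25 after normexp background correction. The second Dnaja2 probe did not pass (0.19 ± 0.089, adjusted p = 0.079). Dnajc7, which binds Hsp70 and Hsp90 through tetratricopeptide repeats, rose by 0.34 ± 0.067. Dnajb6, a suppressor of amyloid aggregation whose promoter holds the heat shock element of 3 units, rose by 0.22 ± 0.063 (adjusted p = 0.0083), a call lost when its probes were averaged (0.04, adjusted p = 0.66). Dnajb2, a ubiquitin-binding member enriched in neurons, did not pass (0.06 ± 0.063, adjusted p = 0.38).

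**Figure D2:**
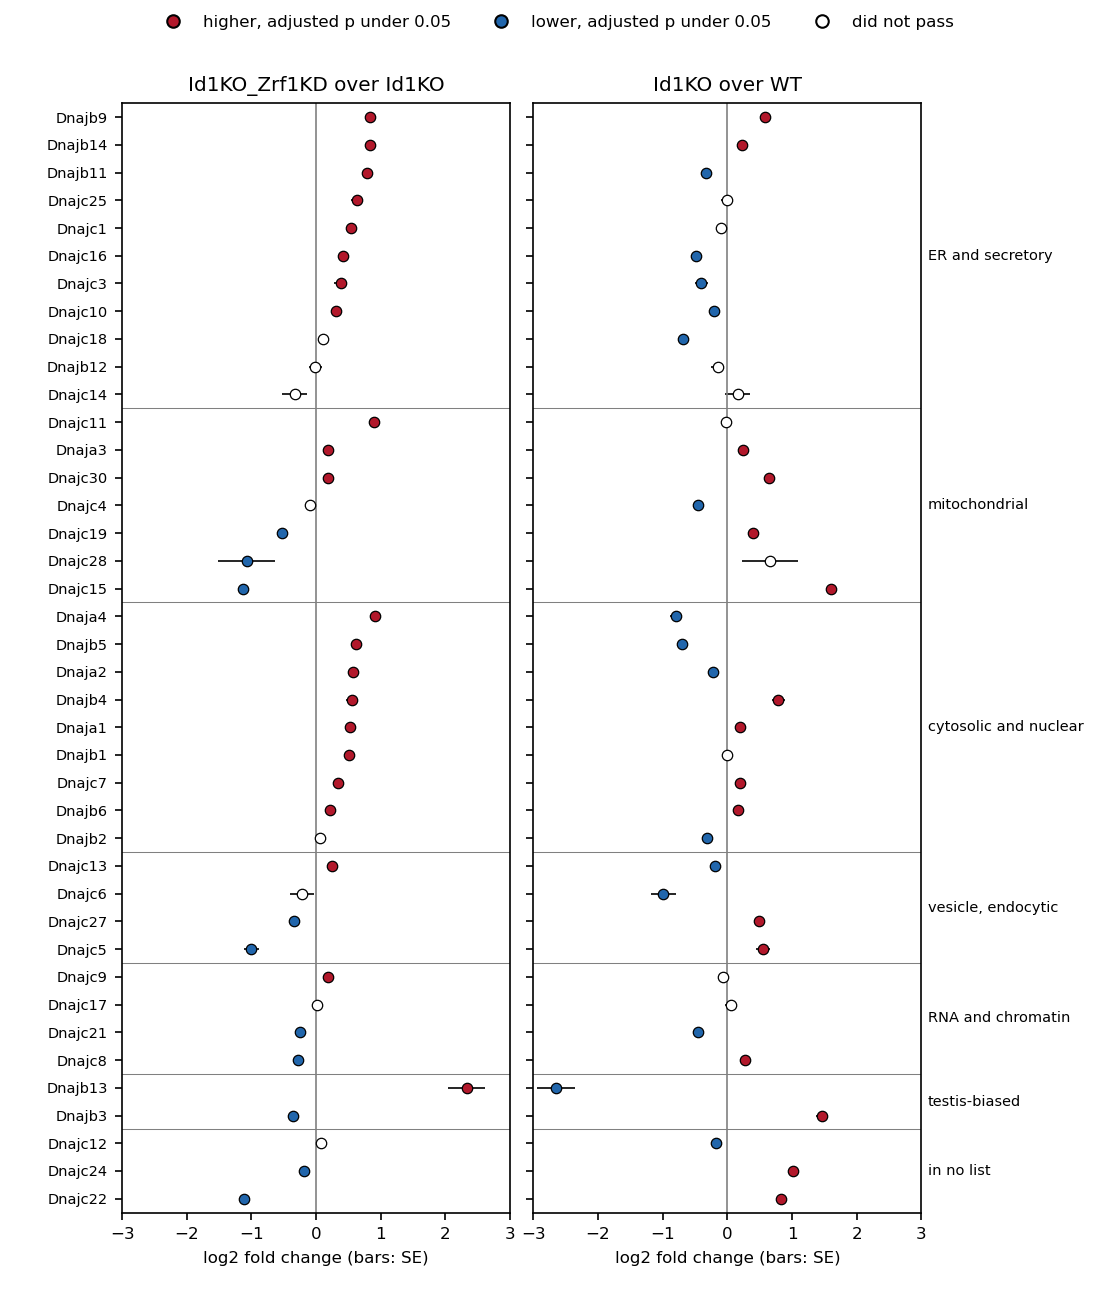
Log2 fold change with its standard error for the 40 tested members, Id1KO_Zrf1KD over Id1KO on the left and Id1KO over WT on the right, with members ordered by compartment and filled symbols for an adjusted p under 0.05. On the left, 8 of 11 ER members and 8 of 9 cytosolic and nuclear members lie to the right of 0 as filled symbols; the panels share the Id1KO arrays. Of all genes tested, 32.3% were higher and 39.8% lower in the left comparison.

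The mitochondrial members were divided, with 3 higher, 3 lower and 1 that did not pass. Dnajc15, an inner-membrane protein that can replace the import motor subunit Dnajc19 and restrains respiratory complex I, had levels of 4.31, 4.39, 4.22 and 4.36 in Id1KO_Zrf1KD, against 5.41, 5.38, 5.52 and 5.50 in Id1KO. It fell 2.19-fold with no overlap (log2 fold change -1.13 ± 0.049 SE, adjusted p = 5.3e-09). The 3 slides taken singly gave values of -1.18, -1.11 and -1.18. Dnajc19 fell by 0.52 ± 0.073 on the log2 scale (adjusted p = 5.9e-05), with levels of 3.75 to 4.0 in Id1KO_Zrf1KD and 4.29 to 4.52 in Id1KO. A second Dnajc19 probe, for another transcript, had a log2 fold change of 0.31 ± 0.13 (adjusted p = 0.051), and the mean of both probes did not pass (-0.11, adjusted p = 0.32). Dnajc11, an outer-membrane protein tied to cristae, had levels of 0.64, 0.68, 0.57 and 0.62 in Id1KO_Zrf1KD and of -0.35, -0.22, -0.25 and -0.27 in Id1KO, a 1.86-fold rise. Its other probe rose less, by 0.27 ± 0.069. Dnaja3, a matrix co-chaperone, and Dnajc30, a small inner-membrane protein, each rose by 0.18 on the log2 scale, and neither passed in the deposited values (0.14, adjusted p = 0.051, for Dnaja3 and 0.09, adjusted p = 0.16, for Dnajc30). Dnajc4 had a log2 fold change of -0.10 ± 0.072 and did not pass.

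Dnajc28 carried the largest spread of the family in the knockdown cells, and its call did not hold. Levels were -2.13, -4.11, -4.20 and -4.40 in Id1KO_Zrf1KD, against -3.05, -2.95, -2.13 and -2.41 in Id1KO, so that 1 knockdown array stood at the level of the highest Id1KO array. The log2 fold change was -1.07 ± 0.44 (adjusted p = 0.047), and it no longer passed under 15 of 22 alternatives. Among these were quantile normalization (-0.72, adjusted p = 0.14), the authors' log2 table (-0.32, adjusted p = 0.11) and the fit without Id1KO_Zrf1KD replicate 4 (-0.84, adjusted p = 0.13).

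Of the vesicle and endocytic members, 2 fell, 1 rose and 1 did not pass. Dnajc5, the cysteine string protein of synaptic vesicles, was the member on which probes disagreed. The brightest probe (chr2:181286885-181286944 in mm9, from base 3604 of its target transcript) had levels of 5.79, 5.90, 6.19 and 5.80 in Id1KO_Zrf1KD, against 6.93, 7.16, 6.70 and 6.90 in Id1KO, a 2.0-fold fall (adjusted p = 9.5e-06). On the same transcript, a probe from base 955 (chr2:181284236-181284295) rose by 0.70 ± 0.061 and a probe from base 636 (chr2:181283486-181283545) by 0.75 ± 0.11. The remaining probe, for another transcript, did not pass (-0.38 ± 0.31, adjusted p = 0.30). The mean of the 4 probes was 0.02 on the log2 scale, so that no direction for Dnajc5 as a gene can be given. Dnajc27, which joins a Rab-like GTPase to a J domain, fell by 0.34 ± 0.066 on the log2 scale, which did not pass after quantile normalization (-0.08, adjusted p = 0.33) or in the authors' log2 table (-0.04, adjusted p = 0.53). Dnajc13, a regulator of endosomal sorting, rose by 0.25 ± 0.061. Dnajc6, the neuronal auxilin that uncoats clathrin vesicles, had levels of -4.63 to -3.60 in Id1KO_Zrf1KD and of -4.06 to -3.62 in Id1KO (log2 fold change -0.22 ± 0.19, adjusted p = 0.30). Its sign turned after quantile normalization (0.24) and in the deposited values (0.09).

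**Figure D3:**
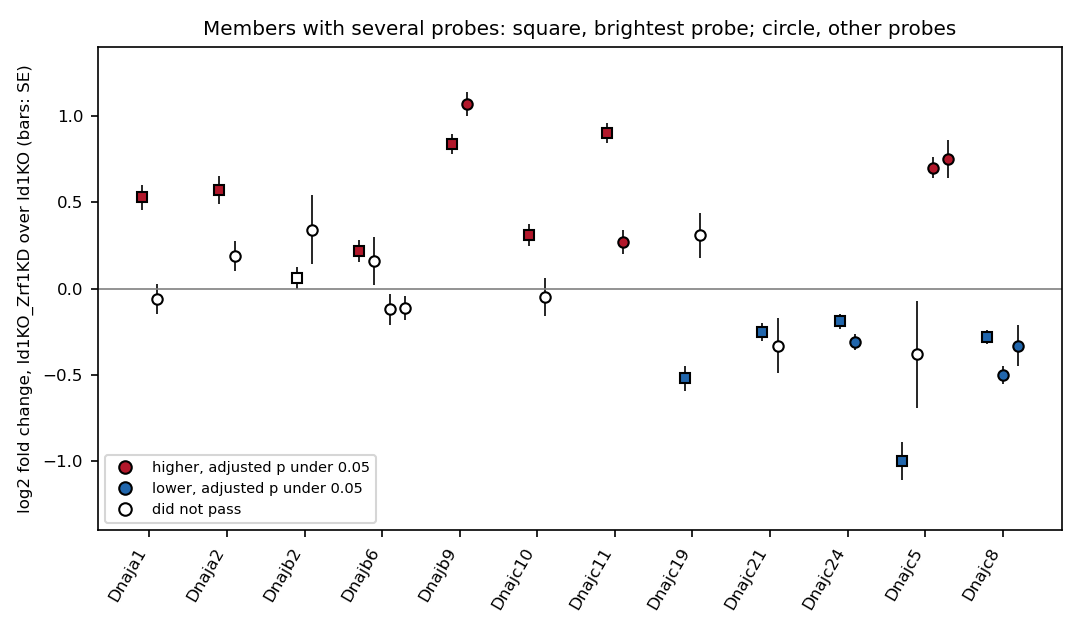
Log2 fold change of Id1KO_Zrf1KD over Id1KO with its standard error for each kept probe of the 12 members with more than 1 kept probe; squares are the brightest probe, which stands for the gene, and circles the other probes. The square of Dnajc5 lies at -1.0 and 2 of its circles at 0.70 and 0.75, while both probes of Dnajb9 and both probes of Dnajc11 lie above 0.

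Among the members that serve RNA, chromatin and ribosomes, 2 fell, 1 rose and 1 did not pass. Dnajc8, a spliceosome-associated member, fell by 0.28 ± 0.040 on the log2 scale, with levels of 4.03 to 4.15 in Id1KO_Zrf1KD and 4.33 to 4.41 in Id1KO, and all 3 of its probes fell. Dnajc21, which takes part in the maturation of the large ribosomal subunit, had levels of 1.89, 1.83, 1.81 and 1.92 in Id1KO_Zrf1KD and of 2.20, 2.01, 2.13 and 2.10 in Id1KO (log2 fold change -0.25 ± 0.050, adjusted p = 0.001). Dnajc9, a chaperone of histones H3 and H4, rose by 0.19 ± 0.047. Dnajc17, a splicing factor, did not pass (0.02 ± 0.084, adjusted p = 0.82).

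The testis-biased members and those outside any compartment list followed no common direction. Dnajb13, a radial spoke protein of sperm flagella, had levels of -2.19, -2.11, -2.02 and -2.0 in Id1KO_Zrf1KD, against -4.38, -3.90, -3.88 and -5.50 in Id1KO. It was higher by 2.33 ± 0.29 on the log2 scale (adjusted p = 2.6e-05), but the probe was above background on only 3 of the 4 Id1KO arrays, and the log2 fold change was 0.80 after normexp background correction and 1.03 in the deposited values, so its size differed between the ways of handling dim signals. Dnajb3, a spermatid protein, fell by 0.35 ± 0.083. Dnajc22, known in the fly as Wurst, a protein of clathrin-mediated endocytosis in the airways, had levels of 0.10, -0.13, 0.08 and 0.09 in Id1KO_Zrf1KD and of 1.25, 1.07, 1.21 and 1.10 in Id1KO. That is a 2.17-fold fall with no overlap (adjusted p = 3.9e-08). Dnajc24, needed for diphthamide synthesis on elongation factor 2, fell by 0.19 ± 0.042, and Dnajc12, a partner of the aromatic amino acid hydroxylases, did not pass (0.08 ± 0.051, adjusted p = 0.19).

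By class, class A had 4 of 4 members higher, class B had 8 higher and 1 lower of 11 tested, and class C had 10 higher and 9 lower of 25. The chaperones that the family serves were counted from lists outside it. Of 12 tested Hsp70 and Hsp110 genes, 10 rose in Id1KO_Zrf1KD over Id1KO and 1 fell, with a median log2 fold change of 0.56. Hspa5, which encodes BiP, rose by 0.66, Hspa9, the mitochondrial Hsp70, by 0.53, and Hspa4, an Hsp110-type exchange factor, by 0.60. Of 11 exchange factors and co-chaperones, 7 rose and 2 fell: Bag5 rose by 1.10, and the mitochondrial exchange factors Grpel1 and Grpel2 fell by 0.55 and by 0.69. Of the 4 J-domain genes under other names, 2 rose and 2 fell. Sec63, the J-domain subunit of the ER translocon, rose by 0.47, and Hscb, which serves iron-sulfur cluster assembly, fell by 0.55.

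Among 22 ER stress genes outside the family, 16 rose and 5 fell in Id1KO_Zrf1KD over Id1KO. Creld2, an ER stress-inducible lumenal protein, rose by 0.84, while Ddit3, the transcription factor CHOP, fell by 2.60 on the log2 scale. Of 15 heat shock response genes, 10 rose and 2 fell. Cryab rose by 2.50 and Hspb1 by 0.87, both small heat shock proteins, and Hspe1, the mitochondrial co-chaperonin, fell by 0.99. The outside lists overlap, so their counts are not separate. Hspa1a, Hsph1, Hspa8 and Hspa4l stand in both the Hsp70 and heat shock lists, and Hspa5 and Hyou1 in both the Hsp70 and ER stress lists. All of these counts stand against 32.3% of genes higher and 39.8% lower over the array.

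**Figure D4:**
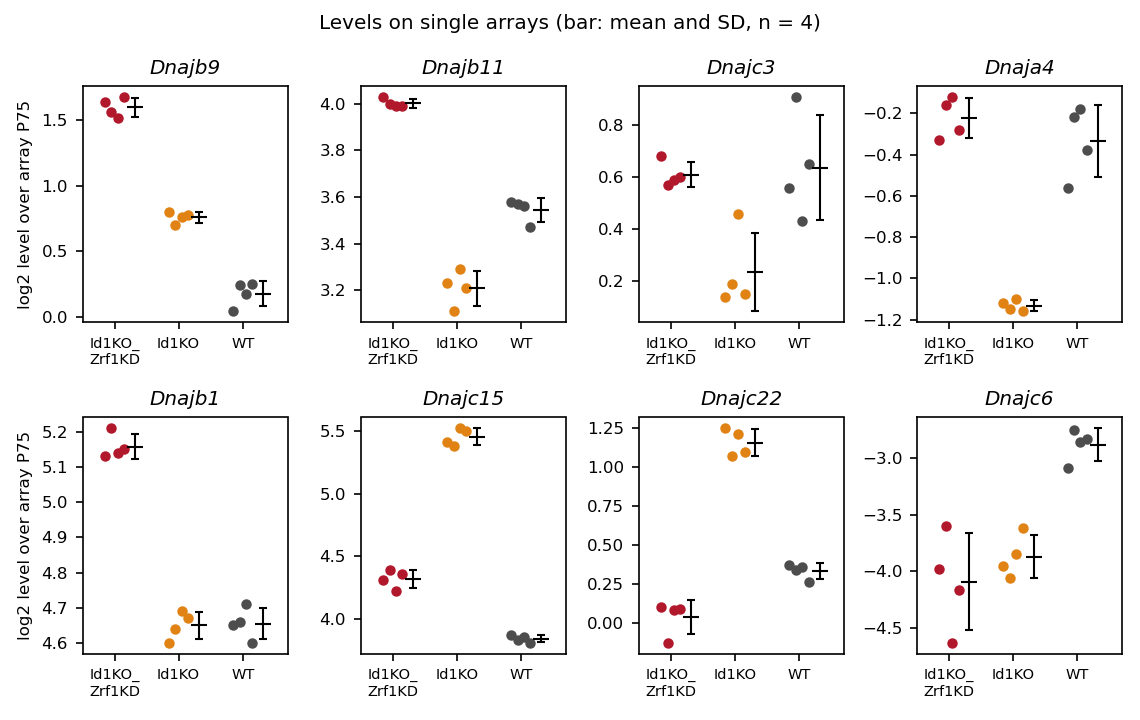
Levels of 8 members on single arrays, as log2 of the processed signal over the array's 75th percentile, for Id1KO_Zrf1KD, Id1KO and WT, with the mean and SD of the 4 arrays beside the points and an axis for each member. Dnajb9 and Dnajc15 lie in 3 groups without overlap, Dnaja4 is low in Id1KO alone, and Dnajb1 is high in Id1KO_Zrf1KD alone.

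The comparison of Id1KO over WT sets the line labelled as the Id1 knockout against the wild-type line. Members moved in both directions in nearly equal number, with Dnajc15, Dnajb3 and Dnajc24 higher and Dnajb13 and Dnajc6 lower. Of 40 members, 31 passed (77.5%) against 72% of all genes, 16 of them higher and 15 lower, where 42.5% of all genes were higher and 29.6% lower. In 25 members the values did not overlap, against 65.8% of all genes. The median log2 fold change was 0.00 in the members and 0.15 in all genes, and this shift of all genes depends on scaling, since it was 0.02 with quantile normalization and 0.01 in the deposited values. A fold of at least 2 was passed by 3 members upward and 1 downward, against 19.6% of all genes (12.2% higher and 7.46% lower).

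Dnajc15 had levels of 5.41, 5.38, 5.52 and 5.50 in Id1KO, against 3.87, 3.83, 3.86 and 3.81 in WT, a 3.05-fold rise (log2 fold change 1.61 ± 0.049 SE, adjusted p = 2.9e-10). Dnajb3 had levels of 0.11, 0.18, -0.19 and 0.07 in Id1KO and of -1.49, -1.52, -1.27 and -1.38 in WT, a 2.74-fold rise. For Dnajc24 they were 3.32, 3.41, 3.45 and 3.40 in Id1KO and 2.35, 2.37, 2.40 and 2.36 in WT, a 2.03-fold rise. None of these groups overlapped. Dnajc22 rose by 0.83 ± 0.063 on the log2 scale, Dnajb4 by 0.79 ± 0.095, Dnajc30 by 0.65 ± 0.054, Dnajb9 by 0.59 ± 0.056 and Dnajc19 by 0.39 ± 0.073. The value for Dnajb4 was 0.25 in the deposited values, and Dnajc19 did not pass when its probes were averaged (0.14, adjusted p = 0.20). The bright Dnajc5 probe rose by 0.55 ± 0.11, which did not pass with quantile normalization (0.22, adjusted p = 0.072). Its other kept probes did not pass, with log2 fold changes of -0.05, -0.10 and 0.22.

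On the lower side, Dnajc6 had levels of -3.95, -4.06, -3.85 and -3.62 in Id1KO, against -3.09, -2.75, -2.86 and -2.83 in WT, a 1.98-fold fall (adjusted p = 5.9e-04). Its log2 fold change was -0.99 ± 0.19, and -0.28 after normexp background correction and -0.49 in the deposited values. Dnaja4 fell by 0.80 ± 0.080 and Dnajb5 by 0.70 ± 0.049, with levels of -1.16 to -1.10 in Id1KO against -0.56 to -0.18 in WT for Dnaja4 and of 0.91 to 1.07 in Id1KO against 1.63 to 1.77 in WT for Dnajb5. Dnajb13 fell by 2.65 ± 0.29, with 3 of the 4 Id1KO arrays above background, and by 1.0 after normexp background correction. Dnajc18 fell by 0.69 ± 0.065, Dnajc16 by 0.48 ± 0.052, Dnajc4 by 0.45 ± 0.072 and Dnajc21 by 0.45 ± 0.050. Dnajb11 fell 1.26-fold (adjusted p = 4.9e-05) with levels of 3.11 to 3.29 in Id1KO and 3.47 to 3.58 in WT. Dnajc3 fell by 0.40 ± 0.10 with overlapping values, 0.14 to 0.46 in Id1KO and 0.43 to 0.91 in WT, and Dnajc10 fell by 0.21 ± 0.062, a call lost when its probes were averaged (-0.01, adjusted p = 0.95). Dnaja1 was called higher (0.20 ± 0.072, adjusted p = 0.025), but its sign turned after quantile normalization (-0.08) and in the deposited values (-0.11). Dnajb1 did not pass (-0.01 ± 0.039, adjusted p = 0.91), though it was lower in Id1KO with quantile normalization (-0.15, adjusted p = 0.0068). At their brightest probes, the members not named for this comparison had log2 fold changes between -0.31 (Dnajb2) and 0.66 (Dnajc28, which did not pass). One of them, Dnaja2, fell by 0.22 at its brightest probe and by 0.93 at its second probe (adjusted p = 3e-06).

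By compartment, 2 ER members rose and 5 of 11 fell in Id1KO over WT, and the mitochondrial members had 4 higher and 1 lower of 7. The cytosolic and nuclear members had 4 higher and 4 lower of 9, a count of higher members that dropped to 1 under each of the other 3 scalings tried. Outside the family, 5 ER stress genes rose and 16 of 22 fell, and the Hsp70 and Hsp110 genes had 4 higher and 7 lower of 12. All of these counts stand against 42.5% of genes higher and 29.6% lower over the array. Hspa5 and Hyou1 are counted in both outside lists. These counts share the Id1KO arrays with those of the knockdown comparison.

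The comparison of Id1KO_Zrf1KD over WT holds both steps together. The members with the largest differences from wild type were Dnajb9, Dnajb4, Dnajb3 and Dnajb14, all higher, and Dnajc6, lower. Of 40 members, 25 passed (62.5%) against 64.6% of all genes, 18 higher and 7 lower, where 32.4% of all genes were higher and 32.2% lower. The count of lower members rose to 11 with quantile normalization and to 12 in the deposited values, with 18 and 17 higher. Values did not overlap in 26 members, against 60.9% of all genes, and the median log2 fold change was 0.11 in the members and -0.02 in all genes. A fold of at least 2 was passed by 4 members upward and 1 downward, against 17.9% of all genes (9.04% higher and 8.87% lower).

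Dnajb9 was 2.68-fold higher in Id1KO_Zrf1KD than in WT, where its levels were 0.04, 0.24, 0.17 and 0.25 (log2 fold change 1.42 ± 0.056 SE, adjusted p = 2.5e-09), and its second probe differed by 2.43. Dnajb4 had levels of -1.69, -1.82, -1.74 and -1.88 in Id1KO_Zrf1KD, against -3.02, -3.39, -2.97 and -3.15 in WT, a 2.55-fold rise whose log2 value of 1.35 was 0.74 after normexp background correction. Dnajb3 rose 2.15-fold and Dnajb14 2.08-fold, without overlap. Dnajc6 fell by 1.21 ± 0.19 on the log2 scale, and by 0.40 in the deposited values. Dnajc21 fell by 0.70 ± 0.050, Dnajc18 by 0.59 ± 0.065 and Dnajc4 by 0.55 ± 0.072. Dnajb1 (0.50 ± 0.039), Dnaja1 (0.73 ± 0.072) and Dnajb11 (0.46 ± 0.045) rose, while Dnajc3 (-0.03 ± 0.10, adjusted p = 0.84) and Dnajc10 (0.10 ± 0.062, adjusted p = 0.18) did not pass. For Dnaja2 the probes disagreed: the brightest rose by 0.35 ± 0.080 and the other, farther along the same transcript, fell by 0.74 (adjusted p = 2.3e-05), so that their mean was -0.19. The probes of Dnajc5 disagreed as well. Its brightest probe fell by 0.45 ± 0.11, while the probes from bases 955 and 636 of the same transcript each rose by 0.65. The members not named for this comparison had log2 fold changes between -0.41 (Dnajc28, which did not pass) and 0.87 (Dnajc11).

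Across the 3 groups, 37 of 40 members passed in at least 1 comparison, and Dnajb12, Dnajc14 and Dnajc17 passed in none. In the single comparisons, 72.1% (Id1KO_Zrf1KD over Id1KO), 64.6% (Id1KO_Zrf1KD over WT) and 72% (Id1KO over WT) of all genes passed. The counts across groups given here were made for the members only, so they are not read as particular to the family. In 13 members all 3 comparisons passed and none of the groups overlapped, which settles the order of the levels at the brightest probe. Among them, 6 had Id1KO_Zrf1KD highest and WT lowest (Dnaja3, Dnajb4, Dnajb9, Dnajb14, Dnajc7 and Dnajc30), and 3 had Id1KO highest and WT lowest (Dnajb3, Dnajc15 and Dnajc24). Dnajc5 and Dnajc22 were highest in Id1KO and lowest in Id1KO_Zrf1KD. Dnajb11 was highest in Id1KO_Zrf1KD and lowest in Id1KO, and Dnajc21 was highest in WT and lowest in Id1KO_Zrf1KD. Of these orders, that of Dnajc7 was not kept with quantile normalization, where Id1KO over WT was -0.01, those of Dnaja3 and Dnajc30 rest on the knockdown differences of 0.18 given above, and that of Dnajc5 rests on 1 of 4 probes.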

How the data were processed

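Agilent Feature Extraction 10.7.3.1 produced the scanner output, per the file headers. It gives the intensity of each spot (mean signal, local background and a processed signal, background subtracted and detrended within the array, not normalized between arrays), with flags of 0 or 1. The authors also deposited log2 values, in which every column has a median of 6.64; how they were normalized is not given. Labelling began from 100 ng of total RNA.

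From the processed intensity, log2 minus the array's 75th percentile over non-control spots was computed. Outlier spots (108 to 302 per array) were left out and the spots of a probe averaged. Of 55681 probes, 30885 were kept: well above background on all 4 arrays of at least 1 group. The brightest kept probe stood for each gene. A single limma 3.58.1 model (R 4.3.3, with the package data.table in version 1.17.8) was fitted over the 12 arrays, two-sided, with Benjamini-Hochberg adjustment over all 22593 genes and a threshold of 0.05; standard errors (SE) are those of the fit. The procedure was tested on simulated data. Figures were drawn with matplotlib 3.10.9 in Python 3.11.15. The number of arrays limits the precision.

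Alternatives were quantile normalization, normexp background correction (offset 50), the deposited values, no filter or a filter on all arrays, the mean of a gene's probes, every probe on its own, the slide or the replicate number as a block, the compared groups alone, leaving out each replicate, and a fold of 2 as well. Coordinates of probes follow the scanner files (mm9). The 28 members described by gene follow a rule: up to 8 each way with the largest change, without overlap (4 each way for Id1KO_Zrf1KD over WT), those with disagreeing probes, and always Dnaja1, Dnajb1, Dnajb9, Dnajb11, Dnajc3 and Dnajc10; of each outside list, up to 3 genes with the smallest adjusted p. The other members are given with their fold change only. The members and lists were chosen with earlier results of these data known.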

Additional observations from a re-analysis of the deposited data

Results flagged for a closer look

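Among 120 groups of 4 arrays (40 members in 3 groups), 7 held an array whose gap to the nearest of the others exceeded Dixon's 95% limit for 4 values; chance gives about 1 in 20. The widest was Dnajc28 in Id1KO_Zrf1KD, where replicate 1 was at -2.13 and the others lay between -4.40 and -4.11. Dnajc14 in Id1KO had replicate 4 at -1.72 and the others between -2.49 and -2.41. For Dnajc3, Id1KO replicate 3 stood at 0.46, the others at 0.14 to 0.19. Dnajc22 in Id1KO_Zrf1KD had replicate 2 at -0.13, below 0.08 to 0.10. Dnajb5 in Id1KO had replicate 3 at 0.91, below 1.04 to 1.07. For the remaining members flagged the gap was small: Dnaja1 in Id1KO_Zrf1KD had replicate 1 at 6.44 against 6.49 to 6.50, and Dnajc8 in WT had replicate 1 at 4.13 against 4.09. Without Id1KO_Zrf1KD replicate 1, Dnajc28 was lower than WT (log2 fold change -0.94, adjusted p = 0.0035), which did not pass with all arrays (-0.41, adjusted p = 0.44).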

How the results depend on the processing

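Every one of the 40 members was refitted in the 3 comparisons under each alternative. The replicate numbers did not pair the samples: around the group means, same-numbered arrays deviated together with a median correlation of -0.20 and arrays sharing a slide with 0.24, and only 1 of 12 was nearest to its own number. With the replicate number as a block, 22 members were higher and 9 lower in Id1KO_Zrf1KD over Id1KO, 17 and 7 over WT, and 15 and 14 in Id1KO over WT. Leaving out 1 replicate gave 21 to 22 higher and 9 to 10 lower, 17 to 18 and 7 to 8, and 13 to 16 and 14 to 16 in the same comparisons. A fold of at least 2 as well left 1 and 4, 4 and 1, and 3 and 1. For Id1KO_Zrf1KD over WT, 11 members were lower with quantile normalization and 12 in the deposited values, against 7, with 18 and 17 higher. For Id1KO over WT, 12 higher and 17 lower with quantile normalization and 11 and 16 in the deposited values stood against 16 and 15.

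List counts that moved, under quantile normalization (Q), normexp (N) or the deposited values (D), were these. In Id1KO_Zrf1KD over Id1KO, ER members lower were 1 (N) against 0, mitochondrial members higher 1 (D) against 3, vesicle members lower 1 (Q, D) against 2, Hsp70 genes lower 0 (Q, D) against 1, J-domain genes under other names higher 1 (Q, D) against 2, and heat shock genes lower 1 (Q, D) against 2. In Id1KO over WT, class A higher was 1 (Q, N, D) against 2, cytosolic members higher 1 (Q, N, D) against 4, vesicle members higher 1 (Q) and 0 (D) against 2, RNA members lower 2 (Q, D) against 1, Hsp70 genes higher 2 (Q, D) against 4, exchange factors lower 6 (Q, D) and 4 (N) against 2, and heat shock genes higher 3 (Q, D) against 6.

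Log2 fold changes that turned sign follow. With the mean of a gene's probes, Dnajc5 was 0.02 over Id1KO and 0.17 over WT, Dnaja2 -0.19 over WT and Dnajc19 0.03 over WT, all in Id1KO_Zrf1KD. In Id1KO_Zrf1KD over Id1KO, Dnajc6 was 0.24 (Q) and 0.09 (D), Dnajc17 -0.04 (Q), -0.05 (D) and -0.03 with the slide as a block, Dnajc12 -0.01 (D), and Dnajb12 0.01 (N) and 0.00 with the slide as a block. In Id1KO_Zrf1KD over WT, Dnajc10 was -0.02 (Q) and -0.01 (D), Dnajc9 -0.04 (Q) and -0.02 (D), and Dnajc13 0.00 (Q). In Id1KO over WT, Dnaja1 was -0.08 (Q) and -0.11 (D), Dnajc7 -0.01 (Q) and -0.02 (D), Dnajc14 -0.04 (Q) and -0.05 (D), and Dnajc25 -0.14 (Q) and -0.12 (D). Of these, Dnajc5 in both, Dnaja2, Dnajc9, Dnaja1 and Dnajc7 had passed the test; the cause was not tested. Without 1 replicate, 9 values that had not passed ranged across 0: Dnajb12 -0.08 to 0.07 and Dnajc17 -0.01 to 0.08 in Id1KO_Zrf1KD over Id1KO, Dnajc3 -0.10 to 0.06 and Dnajc8 -0.03 to 0.01 in Id1KO_Zrf1KD over WT, and Dnajb1 -0.02 to 0.01, Dnajc11 -0.07 to 0.01, Dnajc14 -0.02 to 0.26, Dnajc17 -0.01 to 0.10 and Dnajc25 -0.05 to 0.09 in Id1KO over WT. Low signal limits Dnajb13, Dnajc6 and Dnajc28, whose folds differed between background corrections.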
